A study of Homo sapiens with 16 samples.

Results

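Stretches of open chromatin in U87 cells that stayed open under every treatment but were broader after belinostat are described here. Peaks of the 4 deposited peak lists on chromosomes 1 to 22 and X were merged wherever they overlapped by at least 1 bp, which gave 183659 regions. Of these, 89581 (48.8%) held exactly 1 peak of each list. Members were selected on peak width: the peak of the belinostat list had to be at least 33% wider than the DMSO peak, and the peak of the combination list at least 33% wider than the AsiDNA peak. The rule found 3534 regions, 3.95% of the regions with 1 peak per list and 1.92% of all regions.

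U87 is an established human glioblastoma cell line. The series asks whether AsiDNA and belinostat change chromatin accessibility in such cells, and it measured accessibility by NicE-seq in 16 libraries. The groups were DMSO vehicle, belinostat (1 µM for 24 h), AsiDNA with DMSO vehicle, and AsiDNA with the same belinostat treatment, called the combination below, with 4 libraries each. AsiDNA is a small duplex that looks like a double-strand break to the repair machinery and so acts as bait for it. A dose of AsiDNA is not in the labels. Their protocols speak of MTU87 and LTAU87 cells, the sample fields of U87, and how the AsiDNA groups met the compound is therefore uncertain. Library titles carry the numbers 1 or 2 and D1 or D2, and nothing says whether these were separate cultures. All 4 libraries of a group name the same peak list, so each group has 1 list, no spread between replicates can be given, and no p-value was computed. Shares carry Wilson 95% intervals, which cover counting error only.

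Histone deacetylases remove acetyl groups from histone tails, and acetylated nucleosomes pack less tightly and recruit proteins that hold chromatin open. Belinostat, a hydroxamate, blocks the zinc-dependent deacetylases. In NicE-seq, the enzyme Nt.CviPII nicks accessible DNA at short C-rich sites, DNA polymerase I extends from the nicks with biotinylated nucleotides, and the labelled DNA is captured and sequenced. A peak is a stretch where the captured reads exceed the local background by the peak caller's threshold, and its width is the length of that stretch. Promoters of widely expressed genes usually lie in CpG islands and give broad peaks, while enhancers and other sites far from genes give narrower ones.

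The promoters printed here are examples at the base level and do not stand for all members. Each is the 250 bases before a transcript start in RefSeq's promoter table (GRCh38.p14, the build of the files). Capitals mark bases that lay inside the peaks of both belinostat lists and outside the peaks of both lists without belinostat. S1PR5 encodes a receptor for the lipid sphingosine 1-phosphate, and the sequence shown is chr19:10517966-10518215 on the minus strand. STX1A encodes syntaxin 1A, a membrane protein of synaptic vesicle fusion, at chr7:73719670-73719919 on the minus strand. TBL3 encodes a protein of ribosomal RNA processing, at chr16:1971803-1972052 on the plus strand, and EBP a sterol isomerase of cholesterol synthesis, at chrX:48521558-48521807 on the plus strand.
S1PR5: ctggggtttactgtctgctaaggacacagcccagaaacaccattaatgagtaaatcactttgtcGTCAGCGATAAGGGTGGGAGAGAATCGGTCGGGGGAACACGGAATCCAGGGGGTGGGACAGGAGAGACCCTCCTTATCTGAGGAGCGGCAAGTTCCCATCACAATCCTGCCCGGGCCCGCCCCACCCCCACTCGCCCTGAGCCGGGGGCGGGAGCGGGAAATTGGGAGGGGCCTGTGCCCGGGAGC
STX1A: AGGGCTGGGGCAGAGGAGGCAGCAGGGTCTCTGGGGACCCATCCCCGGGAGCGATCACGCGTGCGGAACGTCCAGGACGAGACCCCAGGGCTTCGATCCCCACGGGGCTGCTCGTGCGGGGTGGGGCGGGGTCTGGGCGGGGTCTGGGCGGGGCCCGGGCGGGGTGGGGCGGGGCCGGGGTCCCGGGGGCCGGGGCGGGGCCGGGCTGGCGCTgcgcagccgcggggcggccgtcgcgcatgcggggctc
TBL3: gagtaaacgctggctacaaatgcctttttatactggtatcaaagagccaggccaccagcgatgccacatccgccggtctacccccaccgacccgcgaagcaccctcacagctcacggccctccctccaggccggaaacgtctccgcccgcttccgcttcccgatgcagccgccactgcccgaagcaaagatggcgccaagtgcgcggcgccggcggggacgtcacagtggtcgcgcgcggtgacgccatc
EBP: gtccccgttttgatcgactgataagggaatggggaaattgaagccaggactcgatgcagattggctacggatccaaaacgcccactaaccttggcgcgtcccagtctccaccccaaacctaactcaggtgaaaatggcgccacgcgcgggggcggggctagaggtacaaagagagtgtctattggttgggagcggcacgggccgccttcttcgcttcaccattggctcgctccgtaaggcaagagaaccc

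Of the 250 bases, 186 were added with belinostat at S1PR5 and 213 at STX1A. At S1PR5 the added bases run up to the transcript start of this window, while another listed S1PR5 promoter (chr19:10517448-10517697) held 0 added bases. At STX1A the added bases make up the upstream part of the window, away from the start. The STX1A peak also drew back at its lower-coordinate border, by -93 bp with belinostat and -118 bp with the combination. Both regions were weak, at percentile 28.0 or lower of fold enrichment in every list, against medians of 33.9 to 58.2 over the members. The windows of TBL3 and EBP hold no capitals: all 250 bases lay inside the peaks of both lists without belinostat, and the widening fell outside the window. GC made up 61.6% of the S1PR5 window, 80.8% of the STX1A window, 65.6% of the TBL3 window and 57.6% of the EBP window. CCD, the site of Nt.CviPII (CCA, CCG or CCT, counted on both strands), occurred 34, 43, 38 and 31 times in the same order, so every window held nicking sites.

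Widening in both comparisons was the smaller part of all widening. With belinostat alone, 13787 regions (15.4% of those with 1 peak per list) were widened by the same threshold, and 3534 of them (25.6%) were also widened in the combination over AsiDNA. In the combination over AsiDNA, 8112 regions (9.06%) were widened, of which 43.6% were also widened without AsiDNA. Narrowing by the same factor applied to 10164 regions (11.3%) with belinostat alone, fewer than were widened, and to 13475 regions (15%) in the combination over AsiDNA, more than were widened. In both comparisons, 4111 regions (4.59%) were narrowed. Across all regions with 1 peak per list, the median width ratio was 1.01 for belinostat over DMSO and 0.96 for the combination over AsiDNA. Regions that were widened in one comparison and narrowed in the other numbered 1947, so widening in both was 1.82 times as frequent as a change in opposite directions.

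**Figure D1:**
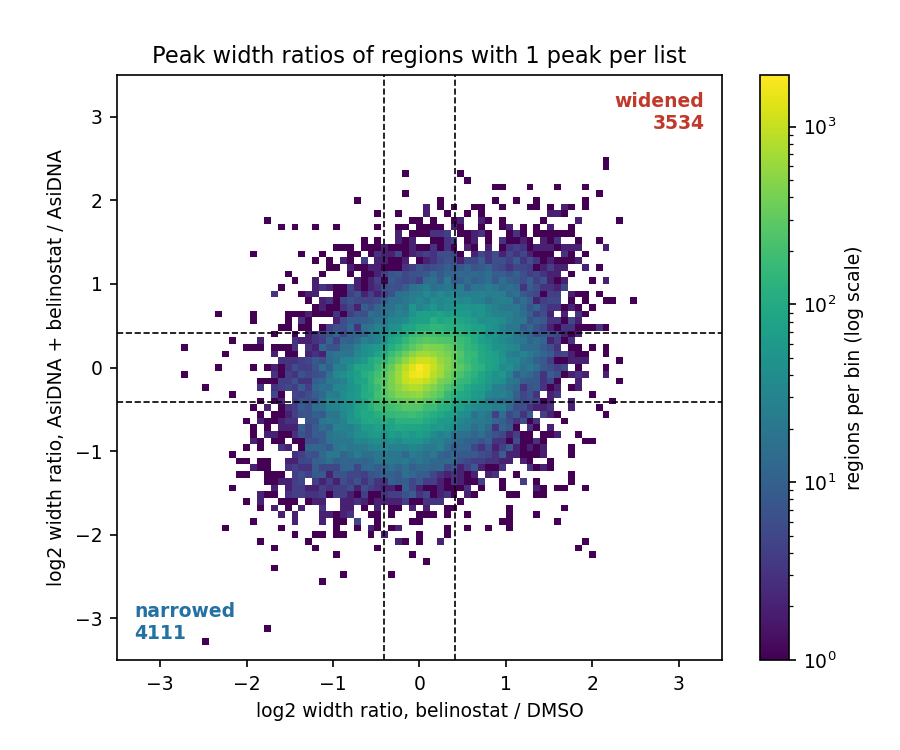
Peak width in the belinostat list over the DMSO list (x axis, log2) against width in the combination list over the AsiDNA list (y axis, log2) for the 89581 regions with 1 peak per list, with colour for regions per bin and dashed lines at the threshold of 33% wider and the same factor narrower. The 3534 widened regions fill the upper right corner and the 4111 narrowed regions the lower left.

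The widened regions were narrow, weakly enriched peaks in the lists without belinostat. Their median width was 287 bp with DMSO, 513 bp with belinostat, 296.5 bp with AsiDNA and 499 bp with the combination. Over all regions with 1 peak per list the medians were 459, 475, 482 and 463 bp, so the members were narrower than most regions without belinostat and only slightly broader than most with it. Narrowed regions showed the reverse, with medians of 541, 312, 558 and 323 bp in the same order of lists. The median ratios of the members were 1.67 for belinostat over DMSO and 1.59 for the combination over AsiDNA. These ratios, and narrow peaks on the side without belinostat, follow from the selection. The smaller of a region's 2 ratios had a median of 1.49. It was at least 1.5 in 1687 regions, at least 2 in 264, and reached 4.48. Fold enrichment, the authors' value for each peak over local background, had medians of 4.70, 6.95, 4.79 and 6.93 in the members in the same order of lists. The medians over all regions with 1 peak per list were 6.84, 7.79, 7.26 and 7.97. Those of narrowed regions were 6.90, 5.36, 7.42 and 5.77, weaker in the lists with belinostat. Fold enrichments are not scaled between lists, and they belong to the same contrast as the rule, so they describe the members and were not tested. A peak's width also depends on how far its signal rises above the caller's threshold, and therefore on read depth, which is unknown for these libraries. Its part in the width ratios was not tested.

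**Figure D2:**
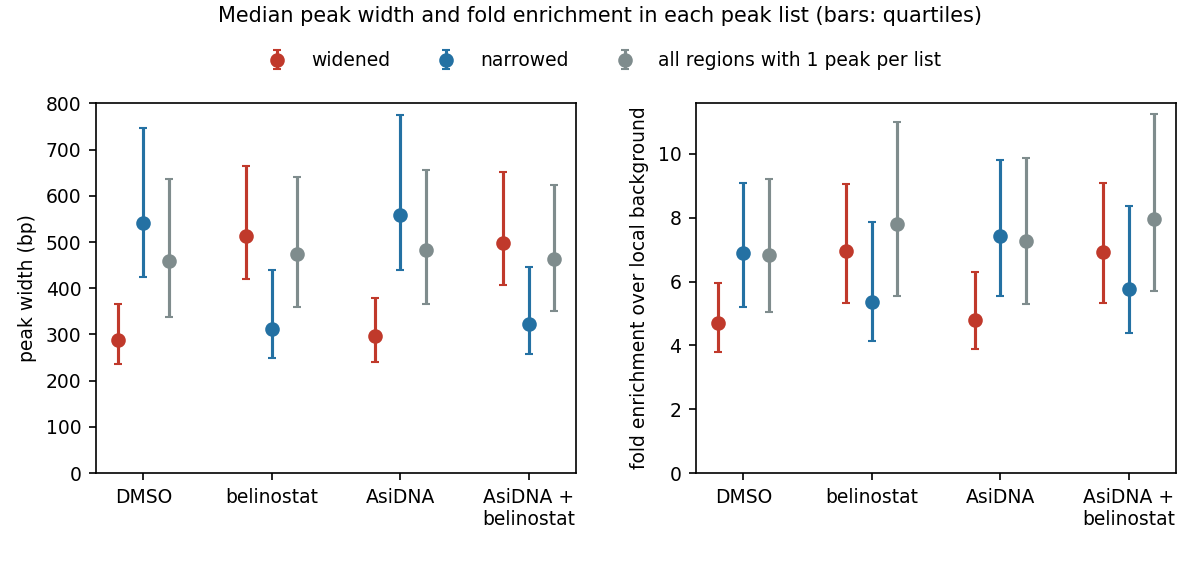
Peak width (left, bp) and fold enrichment over local background (right) in the 4 peak lists, as medians with quartiles, for widened regions, narrowed regions and all regions with 1 peak per list. Widened regions have median widths of 287 and 296.5 bp without belinostat and 513 and 499 bp with it, while all regions stay between 459 and 482 bp.

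At the threshold itself the members pass into the rest without a break. The last regions inside were an intergenic one on chromosome 5, 22036 bp from ZNF474, with widths of 222, 425, 300 and 399 bp (DMSO, belinostat, AsiDNA, combination) and a smaller ratio exactly at the threshold, and one 34.2 kb from ZNF562 on chromosome 19, with 308, 444, 324 and 431 bp. The first regions outside lay 11.9 kb from RHOF on chromosome 12, with 297, 395, 198 and 306 bp, and 39.2 kb from IRF2BP2 on chromosome 1, with 485, 645, 523 and 755 bp. Both narrowly missed the threshold in belinostat over DMSO and passed it in the combination.

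The side on which a region grew was not part of the rule, and it tended to be the same in both comparisons, which share no peak list. The median gain was 209 bp for belinostat over DMSO and 189 bp for the combination over AsiDNA. At least 80% of the gain lay beyond a single border in 55.4% of members (interval 53.8 to 57.0) in the first comparison and in 58.6% (57.0 to 60.2) in the second. In narrowed regions, at least 80% of the loss lay at a single border in 58.5% (56.9 to 60.0) and 54.0% (52.5 to 55.5), so this was not particular to widening. The border that moved outward the more was the same in both comparisons in 2494 of 3519 members with a defined side (70.9%, 69.3 to 72.4). The matching share was 73.3% (72.0 to 74.7) for the side on which narrowed regions shrank. It was 57.7% (57.4 to 58.0) for the border that moved further outward over all regions with 1 peak per list. In regions widened in one comparison and narrowed in the other it was 34.9% (32.9 to 37.1). In such regions, growth and shrinkage at the same border count as different sides. The shares in widened and narrowed regions were both above that over all regions. The share in widened regions was not above that in narrowed ones, so a shared side was not particular to widening. The peak without belinostat lay wholly inside the peak with belinostat in 77.6% of members (76.2 to 79.0) for DMSO and in 73.8% (72.3 to 75.2) for AsiDNA. Such nesting follows in part from the selection of wider peaks, and it was not counted in other sets. The summit, the point of highest signal, moved by a median of 30 and 32 bp, against 27 and 28 bp over all regions, while the outline grew by 209 and 189 bp.

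Widened regions lay away from gene ends more often than narrowed ones. A gene end here is either end of a protein-coding gene in RefSeq's gene table, and a region counted as being at one when it came within 1000 bp. Being at a gene end applied to 198 widened regions (5.60%, interval 4.89 to 6.41), for 631 narrowed regions (15.3%, 14.3 to 16.5) and for 13.0% of all regions with 1 peak per list (12.8 to 13.2). Of the remaining members, 1601 (45.3%) lay in gene bodies and 1735 (49.1%, 47.4 to 50.7) between genes, against 42.6% and 42.1% (40.6 to 43.6) of narrowed regions. The share in gene bodies was 43.0% over all regions, and the share between genes 44.0%. The median distance to the nearest gene end was 25.3 kb for widened, 27.9 kb for narrowed and 24.9 kb for all regions, without allowance for region width. The surroundings of widened regions were also no poorer in genes: a window of 1 Mb held 10.9 genes on average, against 9.28 around narrowed regions and 10.5 around all.

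The difference at gene ends lay mostly near transcript starts. RefSeq's promoter table gives the start and strand of part of the genes. A listed start lay inside 67 widened regions (1.90%, 1.496 to 2.40), inside 483 narrowed regions (11.7%, 10.8 to 12.8) and inside 9.10% of all regions (8.91 to 9.29). With the window used for gene ends, a listed start lay within 1000 bp of 126 widened regions (3.57%). The same held for 562 narrowed regions (13.7%) and 10.5% of all regions. Among regions at a gene end, 91 of the 198 widened ones (46.0%, 39.2 to 52.9) were within 1000 bp of a listed start, against 472 of the 631 narrowed ones (74.8%, 71.3 to 78.0) and 68.0% over all regions (67.1 to 68.8). The other widened gene-end regions include 73 at genes whose listed start lies elsewhere and 34 at genes with no listed start. Which end of the gene lay near was not counted for the 73. It can be the far end or, as at PLEKHM2 with its listed start 2758 bp away, an end near the start. For narrowed gene-end regions these counts were 61 and 98.

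Width matters for this contrast, because broad regions were more often at a gene end and the rule picks regions that were narrow without belinostat. In bands of the mean width over the 4 lists, chosen after the data were seen, the gene-end shares of widened and narrowed regions were alike up to 400 bp: 4.63% (3.68 to 5.80) and 4.74% (3.77 to 5.93) between 300 and 400 bp. Between 500 and 700 bp they were 7.33% (5.47 to 9.76) and 15.1% (12.6 to 17.9). Above 700 bp, 19 of 162 widened regions (11.7%, 7.64 to 17.6) were at a gene end, against 379 of 615 narrowed regions (61.6%, 57.7 to 65.4) and 40.8% of all regions (40.0 to 41.6). The difference in gene-end share between widened and narrowed regions thus sits in the broad regions and was not seen among the narrow ones. The median distance to the nearest gene end was shorter for widened than for narrowed regions in every band up to 700 bp. Between 300 and 400 bp it was 24.8 kb for widened, 33.3 kb for narrowed and 30.8 kb for all regions. Between 500 and 700 bp it was 27.0, 36.2 and 26.1 kb. Above 700 bp the order turned, with 26.6, 0 and 6.80 kb.

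**Figure D3:**
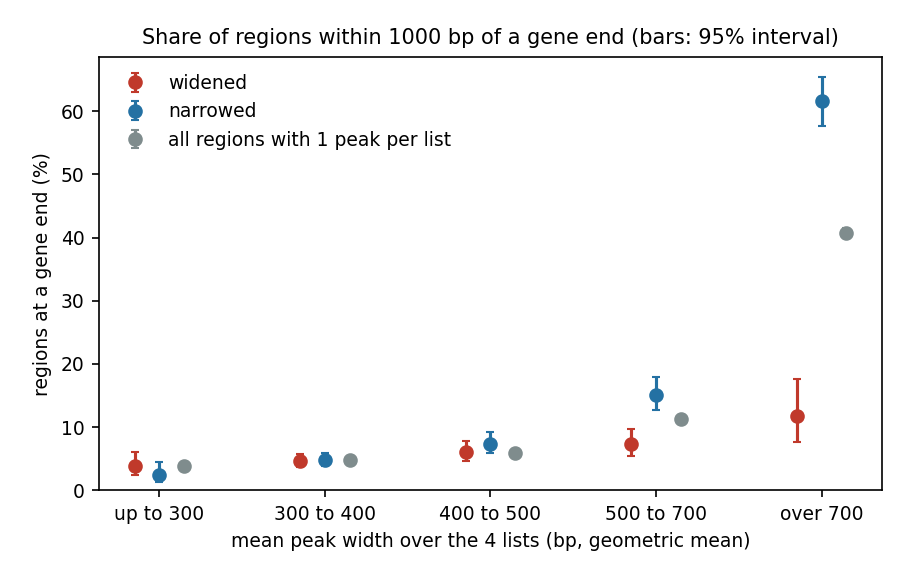
Share of regions at a gene end (y axis, percent; window of 1000 bp) by the geometric mean of their peak widths over the 4 lists (x axis, bp), for widened, narrowed and all regions with 1 peak per list, with Wilson 95% intervals. The 3 sets lie close together up to 500 bp and part above it, to 11.7% of widened and 61.6% of narrowed regions above 700 bp.

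Where a widened region did hold a listed start, it grew on either side of it. In these 67 regions the median gain was 171 bp upstream and 82 bp downstream with belinostat over DMSO, and 115 and 86 bp with the combination over AsiDNA. Growth was mostly upstream in both comparisons at 28 of them and mostly downstream in both at 21. Narrowed regions with a start inside shrank mainly downstream of it, by medians of -321 bp downstream and -45 bp upstream with belinostat over DMSO, and of -311 and -61 bp in the combination.

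Promoter sequence differed between the sets and varied with region width. Widened regions held 111 of the 34961 listed starts, counting several starts of a gene apart, and narrowed regions 762. The median CpG observed over expected ratio of the 300 bases around the start was 0.63 in the widened, 0.84 in the narrowed, 0.84 in all regions with 1 peak per list and 0.58 over all listed promoters. A ratio above 0.6, a usual mark of CpG islands, was found at 50.5% of starts in widened regions (41.3 to 59.6), 84.1% in narrowed (81.4 to 86.5), 82.3% in all regions with 1 peak per list (81.6 to 82.9) and 48.9% of all promoters (48.4 to 49.4). At starts in regions up to 500 bp wide, these shares were 39.7% (28.5 to 52.0) in widened, 56.6% (45.4 to 67.1) in narrowed and 42.2% (39.5 to 45.0) in all regions. Above 500 bp they were 64.6% (50.4 to 76.6), 87.2% (84.5 to 89.5) and 86.5% (85.8 to 87.05), so the interval for broad widened regions lay below both others. GGGCGG, the GC box read on either strand, was present at 51.4% of starts in widened regions (42.2 to 60.4) and 71.5% in narrowed (68.2 to 74.6). It was present at 68.7% in all regions with 1 peak per list and at 45.0% of all promoters. Up to 500 bp the shares were 41.3% (30.0 to 53.6) in widened, 56.6% (45.4 to 67.1) in narrowed and 42.6% in all regions. Above 500 bp they were 64.6% (50.4 to 76.6), 73.2% (69.7 to 76.4) and 71.4%. Within either band the widened and narrowed intervals overlapped. TGANTCA, the AP-1 motif, was present at 11.7% in widened (6.97 to 19.0), 6.17% in narrowed (4.67 to 8.11) and 7.68% of all promoters, but the direction turned with region width. Up to 500 bp it was present at 9.52% of starts in widened (4.44 to 19.3) and 22.4% in narrowed regions (14.5 to 32.9), and above 500 bp at 14.6% (7.25 to 27.2) and 4.37% (3.08 to 6.17). Over all regions with 1 peak per list the share was 19.0% up to 500 bp and 5.72% above, as in narrowed regions higher in the narrow band. The widened shares rest on 6 and 7 starts, and their intervals overlap. CCAAT, the NF-Y motif, was present at 33.3% in widened (25.3 to 42.5), 32.5% in narrowed (29.3 to 36.0) and 34.6% of all promoters, with no difference beyond the intervals. CCD sites had a median of 41 per promoter in widened and 45 in narrowed regions. The median was 44 in all regions with 1 peak per list and 39 over all promoters. Up to 500 bp the medians were 39 in widened, 38 in narrowed and 37 in all regions. Above 500 bp they were 43, 46 and 45. CCD is the site the enzyme nicks, and its part in these peaks was not tested.

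Among gene-end members, the 10 with the largest smaller ratio were at TTC7B, TWF2, PI4K2A, EAF1, ITGB5, GCN1, SNX20, PI3, DEPP1 and S1PR5. The widths in the next sentences are in the order DMSO, belinostat, AsiDNA and combination. TTC7B, a scaffold of a phosphatidylinositol 4-kinase complex, had a region 700 bp from its end on chromosome 14 (90522701 to 90523864) with widths of 240, 1085, 400 and 1110 bp. Nearly all of this gain lay on the lower-coordinate side, 839 bp with belinostat and 764 bp with the combination, and the fold enrichments were 5.77, 6.35, 6.74 and 7.98. PI4K2A, itself a phosphatidylinositol 4-kinase, held a region on chromosome 10 (97676313 to 97677707) with widths of 416, 1395, 319 and 837 bp. Its listed folds were 4.76, 3.60, 3.97 and 3.68, at or below percentile 35.7 of each list. S1PR5, whose promoter is printed above, had widths of 240, 820, 432 and 938 bp and folds of 2.96, 3.53, 4.40 and 3.44, all in the lower part of their lists.

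ITGB5, the integrin beta 5 subunit through which cells bind vitronectin, had a region 224 bp from its end on chromosome 3 (124760665 to 124761724) with widths of 355, 1032, 428 and 997 bp. It had folds of 5.70, 12.1, 9.65 and 12.2, and grew mostly on the lower-coordinate side, by 567 and 494 bp. PI3, which encodes the protease inhibitor elafin, had widths of 294, 681, 198 and 504 bp on chromosome 20 and folds of 3.23, 10.2, 3.09 and 7.95. EAF1, a partner of the elongation factor ELL, had a region 757 bp from its far end with widths of 285, 939, 265 and 642 bp and folds of 3.19, 9.67, 3.29 and 7.03. In PI3 and EAF1 the peaks without belinostat were among the weakest of their lists, at percentiles between 6.70 and 9.92 of the fold enrichment, and those with belinostat lay at percentiles between 56.6 and 79.1. In both regions the larger gain was at the lower coordinates with belinostat and at the higher with the combination. The others of the 10 were TWF2 (an actin-binding twinfilin), GCN1 (an activator of the stress kinase GCN2), SNX20 (a sorting nexin) and DEPP1, with smaller ratios between 2.17 for DEPP1 and 2.75 for TWF2.

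The strongest gene-end members, ranked by the lowest percentile of fold enrichment over the 4 lists, lay at transcript starts and at far ends of genes. At the start of TBL3 (chromosome 16, 1971689 to 1972728) widths were 438, 1000, 565 and 924 bp with folds of 11.1, 17.2, 11.7 and 15.7. Its gain of 516 and 407 bp lay on the higher-coordinate side, which is downstream of the start. EBP grew upstream instead, by 636 and 611 bp, with widths of 554, 1181, 753 and 1161 bp. At SCFD2, a member of the Sec1 family of membrane fusion proteins, widths were 529, 834, 574 and 1000 bp and the gain of 319 and 458 bp was downstream of the start on the minus strand. TAF1D, a subunit of the RNA polymerase I factor SL1, and C11orf54 share a region with starts in opposite directions and widths of 879, 1184, 791 and 1229 bp. WDR90, a centriole protein, was open at its start with widths of 531, 919, 530 and 772 bp.

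EPHA2, an ephrin receptor tyrosine kinase studied in glioblastoma, had the region with the highest minimum percentile (94.99) of the gene-end members. It lay 922 bp from the gene's end and 32654 bp from its start, on chromosome 1 (16122390 to 16123415), with widths of 662, 1026, 675 and 1020 bp and folds of 13.1, 16.6, 14.2 and 15.5. The gain was on 1 side in both comparisons, 353 and 324 bp at the lower coordinates against 11 and 21 bp at the higher. The other members of this set were at RAVER1 (a splicing cofactor), RFX5 (a regulator of MHC class II genes), EPS8L1 and CTH (cystathionine gamma-lyase), with smaller ratios between 1.333 for EPS8L1 and 1.44 for RFX5.

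**Figure D4:**
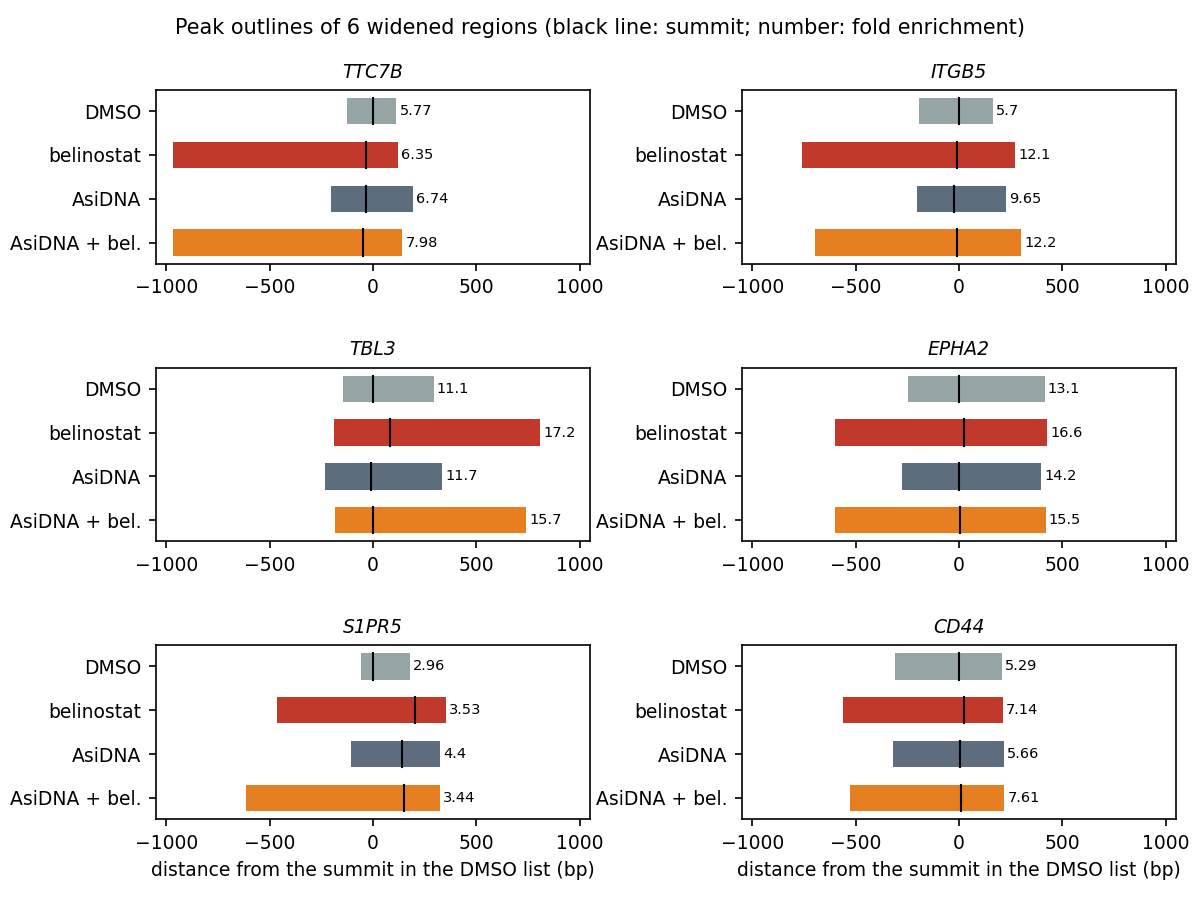
Outlines of the 4 peaks in 6 widened regions, by distance in bp from the summit in the DMSO list (higher coordinates to the right), with a black line for each peak's summit and its fold enrichment beside it. TTC7B, ITGB5, EPHA2, S1PR5 and CD44 extend to the left and TBL3 to the right, in the belinostat and the combination lists alike.

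Farther from genes the largest width ratios were reached. A region 2.38 kb from SLC38A3, a glutamine transporter gene on chromosome 3 (50201677 to 50202886), had widths of 257, 1152, 230 and 1205 bp and the highest smaller ratio of all members, 4.48. A region 97.1 kb from METRNL on chromosome 17 had widths of 267, 1174, 212 and 1211 bp. In NAV2, a neuron navigator gene on chromosome 11, a region 257 kb from the gene's end had 192, 826, 206 and 859 bp. Regions 38.5 kb from CPO and within GRHL1, a grainyhead transcription factor gene, both on chromosome 2, completed the 5 with smaller ratios of 3.74 and 3.73. All 5 ranked below the middle of the DMSO and AsiDNA lists by fold enrichment. The gain in the SLC38A3 and METRNL regions lay mostly on the higher-coordinate side in both comparisons, and that in the CPO and GRHL1 regions on the lower. The NAV2 region switched sides, with 515 bp at the lower coordinates with belinostat and 634 bp at the higher with the combination.

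The strongest members over 1000 bp from a gene end were of moderate width. The region nearest CBLB, a ubiquitin ligase gene, lay 559 kb from it on chromosome 3 (106428526 to 106429325) and had widths of 572, 799, 515 and 796 bp. Its folds of 16.2, 20.1, 20.1 and 18.6 were above percentile 98 of every list, at 98.7 or more. RAB8B, a vesicle traffic GTPase gene, held one in its body with 500, 740, 490 and 832 bp. The others lay 11.1 kb from CHST2, 15.4 kb from GOLGA6L2 and 14.8 kb from BBS10. The gain in the CBLB, RAB8B, CHST2 and BBS10 regions was on the higher-coordinate side in both comparisons.

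Members inside gene bodies fell in 1554 genes, of which 213 held 2 or more and 38 held 3 or more. CDH22, a cadherin gene on chromosome 20, held 5 widened among 15 regions with 1 peak per list in 135 kb and no narrowed one. Its strongest member (46260215 to 46260977) had widths of 318, 747, 459 and 687 bp and folds of 6.66, 15.6, 7.02 and 16.6. SND1, a nuclease and RNA-binding protein gene on chromosome 7, held 5 widened and 2 narrowed among 31. PREX1, a Rac exchange factor gene on chromosome 20, held 4 of 22 and SYN3, a synapsin gene on chromosome 22, held 4 of 38, with no narrowed region in either. In TCF4, a basic helix-loop-helix factor gene on chromosome 18, 4 of 26 were widened and 4 narrowed. These genes were named for their counts, which are not tested, and long genes hold more regions.

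Over all protein-coding genes, 11575 had a region with 1 peak per list at an end. At 223 of them (1.93%) such a region was widened, and at 741 (6.40%) one was narrowed. The same was counted for 16 gene lists chosen for the drugs and the tissue. In gene bodies, 1814 of 51945 regions were widened, an overall share of 3.49% (3.34 to 3.65). Of 14710 genes with a region in the body, 1554 (10.6%) held a widened one. Counts of genes depend on how many regions each gene holds, and long genes hold more.

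Genes of the deacetylase system had few regions to count, and shares near 1.93% cannot be read from them. None of 8 histone deacetylase genes with such a region had a widened or a narrowed one there, and HDAC9 held the only widened region in a body, 1 of 67 (1.49%, 0.264 to 7.98). Of 24 genes of deacetylase corepressor complexes, RCOR3, a CoREST subunit, was widened near its start (362, 755, 419 and 746 bp), 4.17% of these genes, and SIN3A, KDM1A and ARID4A (12.5%) were narrowed. Acetyltransferase and BET reader genes had none of 12 widened and BRD9 narrowed, and CREBBP, the gene of the acetyltransferase CBP, held a widened region in its body. The CREBBP region on chromosome 16 (3849122 to 3850090) had widths of 424, 838, 520 and 798 bp and folds of 10.2, 18.1, 13.8 and 16.8.

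In the lists of DNA repair, cell death and stress genes, the counts at gene ends were too small to set apart from the 1.93% over all genes. No gene end was widened among 17 genes of end joining, 23 of recombination and the Fanconi pathway, 16 of PARP and single-strand break repair or 12 of the BCL2 family. Narrowed there were PRKDC, the catalytic kinase of end joining, XRCC3 and FANCA. In bodies, 1 of 66 regions of end-joining genes was widened (1.52%, 0.268 to 8.10), 4 of 100 of recombination and Fanconi genes (4%, 1.57 to 9.84) and 2 of 33 of the BCL2 family (6.06%, 1.68 to 19.6), all with intervals that hold the overall share. They include regions in RIF1, RAD51B, FANCD2 and BCL2L1, and none of 36 regions in PARP and single-strand break repair genes was widened (upper bound 9.64%). A region in RAD51B, a gene of homologous recombination on chromosome 14 (68619658 to 68620581), had widths of 249, 868, 419 and 779 bp and folds of 4.36, 15.6, 5.76 and 14.6. Among cell-cycle inhibitor and stress genes, none of 11 was widened at an end and CDKN1B and TXNIP were narrowed, and none of 26 regions in bodies was widened (upper bound 12.9%). AP-1 and early growth response genes had none of 37 regions in bodies widened (upper bound 9.41%), with FOSL2 and ATF2 narrowed at an end.

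For synaptic genes the interval of the body share lay above the overall 3.49%. Of 244 regions in the bodies of synaptic genes, 18 were widened (7.38%, 4.72 to 11.4) and 7 (2.87%) were narrowed. The widened ones lay in 10 of 30 genes (33.3%, against 10.6% over all genes), without allowance for the number of regions per gene. GRIN2A and NRXN3 held 3 each and SYN3 held 4. A region in NRXN3, a presynaptic adhesion molecule gene on chromosome 14 (78614666 to 78615125), had widths of 225, 460, 288 and 455 bp and folds of 5.49, 10.8, 6.62 and 8.42. In PCLO, a scaffold gene of the presynaptic zone on chromosome 7, widths were 414, 1059, 327 and 1044 bp. The PCLO region grew by 664 bp at the higher coordinates with belinostat, but by 654 bp at the lower with the combination. STX1A was the only one of 19 synaptic genes widened at an end, with widths of 192, 362, 205 and 357 bp. Its folds of 2.31, 2.26, 2.04 and 2.08 were near the floor of each list, below percentile 0.4 (0.388 with DMSO and lower in the others). Integrin and laminin genes had 10 widened among 194 body regions (5.15%, 2.82 to 9.23), an interval that holds the overall share. These lay in 8 of 29 genes (27.6%), 7 of them laminin genes. In LAMA3 on chromosome 18 the region (23871320 to 23871946) had widths of 335, 588, 306 and 564 bp and folds of 4.26, 12.2, 5.14 and 12.0. ITGB1, ITGB8 and LAMC1 were narrowed at an end. These lists were chosen with earlier results of these data known, the intervals take regions as independent, and no list was tested against others.

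Among genes of glioma biology, CD44, a hyaluronan receptor of the mesenchymal state, was widened at its start on chromosome 11 (35138515 to 35139293), with widths of 516, 771, 534 and 745 bp and folds of 5.29, 7.14, 5.66 and 7.61. The gain of 252 and 208 bp was upstream of the start, and the downstream border moved by 3 bp in both comparisons. Of 13 receptor tyrosine kinase genes with a region at an end, EPHA2 was widened and INSR narrowed. S100B, a calcium-binding protein of astrocytes, was widened at an end with 276, 431, 311 and 689 bp. The mesenchymal regulators STAT3, FOSL2 and TGFBR2 and the glial list's NOTCH1 were narrowed at an end. In bodies of the mesenchymal list, 4 of 154 regions were widened (2.60%, 1.01 to 6.49) and 12 (7.79%) were narrowed, against 3.49% and 4.77% over all genes. The widened ones lay in 3 of 17 genes (17.6%) and the narrowed ones in 8 (47.1%), against 10.6% and 13.9% of all genes. Of the receptor tyrosine kinase regions, 3 of 120 were widened (2.50%, 0.854 to 7.09) and 1 narrowed, and of the glial regions 4 of 71 (5.63%, 2.21 to 13.6) and 7. A broad RUNX1 region on chromosome 21 (34835603 to 34836956) went through widths of 917, 1300, 921 and 1270 bp, and one in EGFR on chromosome 7 through 450, 848, 521 and 817 bp. Interferon-induced genes had none of 24 ends widened and IRF1 and OAS3 narrowed, with IFIH1 the only body. Of 5 clustered zinc finger genes of chromosome 19 with body regions, ZNF430 held a widened one, 1 of 11 regions (9.09%, 1.62 to 37.7).

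The chromosomes held similar shares of widened regions, from 3.55% on chromosome 4 (3.02 to 4.16) to 4.77% on chromosome 19 (4.03 to 5.65). Narrowed regions varied more. On chromosome 19, which is rich in genes, 127 regions were widened and 70 narrowed (2.63%, 2.09 to 3.31), a ratio of 1.81, and the intervals of both shares did not overlap. Widened regions also outnumbered narrowed ones on chromosomes 20 (1.26), 11 (1.12), 18 (1.02) and 22 (66 against 55 regions), while on chromosome 4 the ratio was 0.67. Regions of a chromosome share its copy number, which varies in this aneuploid line, and its part in these shares was not tested.

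**Figure D5:**
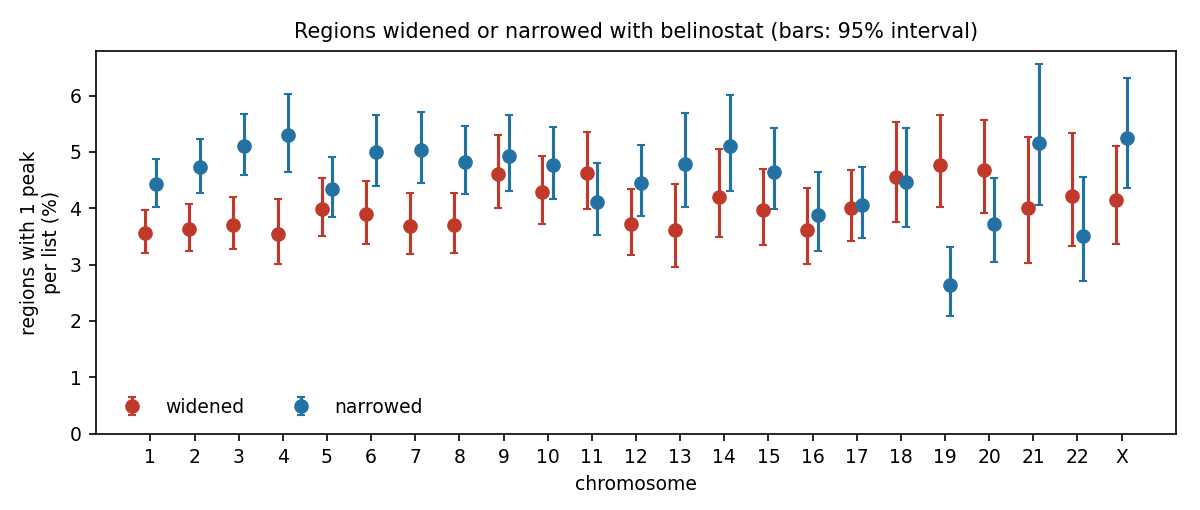
Percent of regions with 1 peak per list that were widened or narrowed in both comparisons (y axis) on each chromosome (x axis), with Wilson 95% intervals. Chromosome 19 has 4.77% widened and 2.63% narrowed, and chromosome 4 has 3.55% and 5.29%.

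Neighbouring regions gave little contrast. A region open only in both belinostat lists lay within 10 kb of 510 widened regions (14.4%, 13.3 to 15.6), of 12.9% of narrowed regions (11.9 to 13.9) and of 13.3% of all (13.0 to 13.5). A region open only in both lists without belinostat was that close to 10.3% of widened (9.31 to 11.3), 9.56% of narrowed (8.70 to 10.5) and 10.4% of all regions (10.2 to 10.6). Another widened region lay within 10 kb of 164 members (4.64%, 3.99 to 5.38), and 4.91% of narrowed regions (4.29 to 5.62) had another narrowed one. All of these intervals overlap between widened and narrowed regions. Of 1558 miRNA hairpins in RefSeq's table, 3 overlapped a widened region (MIR3196, MIR4491 and MIR570), 8 a narrowed one and 118 any region with 1 peak per list.

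The lists bore out the label of the cells in part. All 10 genes used as marks of glial and mesenchymal glioma cells had a gene-end peak in every list, and CDKN2A and CDKN2B, which are deleted in U87, had no peak at their ends. Of markers of other tissues, CD3E, APOB, SYT1 and SNAP25 also had gene-end peaks in every list, while epithelial and muscle markers had none. In the order used above, the lists held 130318, 138937, 138273 and 134865 peaks with median widths of 398, 408, 410 and 401 bp.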

How the data were processed

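Open chromatin was measured by NicE-seq in 16 U87 libraries, grouped by the treatment label into 4 groups of 4. The deposited peak lists, 1 per group, give positions on hg38, a fold enrichment over local background (a ratio) and p-values and q-values on the −log10 scale, all as made by the authors' peak caller. Per the submitters' processing notes, the tools were MACS2, Bowtie2, Trim Galore 0.5.0, Picard, SAMtools and deepTools. For their options, for a control input or blacklist, and for the way libraries were pooled, nothing is given in the sources used here.

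From these lists, peaks were merged, regions with 1 peak per list were kept, and the threshold of 33% wider was applied in both belinostat comparisons. Regions narrower by the same factor in both served as the narrowed set. Locations used RefSeq's gene table (GRCh38.p14, 19970 protein-coding genes on these chromosomes), which gives ends without strand. Starts, strand and sequences came from RefSeq's promoter table, from 250 bases before to 50 after a start. Percentiles are ranks of the fold enrichment within a list. Positions are 1-based. The members, gene lists and rules were chosen with earlier results of these data known.

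Named regions were the 10 gene-end members and 5 others with the largest smaller ratio, the same numbers by lowest percentile, members at ends of listed genes, the 5 genes with most members (ties went to the gene with fewer regions), and the 2 regions on either side of the threshold. Members in bodies of listed genes are given by counts, and the examples printed from them were picked after their values were seen. Bands of width, promoters split by region width, and the STX1A and CD44 promoters were added after the data were seen. Alternatives were other width ratios, ratios divided by their median, a −log10 q of at least 5, lists of equal length, a 50% overlap, all sequences, and other windows. Functions were tested on simulated regions. Scripts used pandas 2.3.3 and numpy 2.4.6 under Python 3.11.15, with matplotlib 3.10.9 for plots.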

Additional observations from a re-analysis of the deposited data

How the results depend on the processing

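With 1 list per group, leaving out a replicate was not possible, and depth limits cannot be stated because no read counts were used. No paired analysis was possible because each peak list pools the 4 libraries of its group. Of 54 alternatives, 45 stayed within the interval of the main value, or within 1.5 times a main count. The number of widened regions was 1687 at a width ratio of 1.5, against 3534. It lay between 2704 (−log10 q of at least 5) and 5237 (25% wider) under the others, with 3938 after dividing the ratios by their medians. The gene-end share of 5.60% was 4.07% with a window of 500 bp, 9.08% with 2000 bp and 11.7% among regions over 700 bp, and between 5.51% and 6.11% under the rest. The share growing on the same side, 70.9%, was 69.2% at 25% wider, 73.4% at a ratio of 1.5 and 74.97% at a −log10 q of at least 5. The share with a belinostat-only region nearby was 7.10% within 5 kb and 49.6% within 50 kb, against 14.4% within 10 kb, as a narrower or wider window by its construction gives.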
